A study of Mus musculus with 10 samples.

Results

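Troponins and tropomyosins are the proteins that make the thin filament of muscle respond to calcium. The genes described are 9 members of these families in a bulk RNA-seq count table of infarcted mouse hearts, taken by name from its 49585 genes: the cardiac and slow skeletal troponin genes Tnni1, Tnni3, Tnnt1, Tnnt2 and Tnnc1, and the tropomyosin genes Tpm1, Tpm2, Tpm3 and Tpm4. All 9 were in the table, and 8 of them were among the 12906 genes with enough counts to be tested. Tnni1 had at most 2 counts in any library and was not tested.

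The samples were left ventricles of male mice of the ICR strain, all with myocardial infarction, freed of atria, valves and right ventricle and harvested 4 weeks after the infarction. The labels also carry a time of 8 weeks, whose starting point they do not state. One group of 5 libraries received 4FM3, and the other group of 5 received phosphate-buffered saline (PBS). The series title concerns direct reprogramming in the living heart with adeno-associated virus, a gene delivery vector. What 4FM3 stands for is not given in the sources used here. There was no group with an empty vector and none with uninjured hearts, and nothing states that each library came from a separate animal. A p-value therefore reflects how these libraries vary, which may be technical.

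Tropomyosin is a coiled coil that lies along actin and, in resting muscle, covers the sites where myosin binds. Troponin sits on it as a complex of an inhibitory subunit (troponin I), a tropomyosin-binding subunit (troponin T) and a calcium-binding subunit (troponin C), and calcium on troponin C lets tropomyosin move aside. The adult mouse ventricle uses Tnni3, Tnnt2, Tnnc1 and Tpm1. Tnni1, the slow skeletal troponin I, is the form of the fetal heart, and Tnnt1 is the slow skeletal troponin T. Tpm2, Tpm3 and Tpm4 are used mainly by skeletal or smooth muscle and by the actin cytoskeleton of other cells.

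The coding starts of Tnni3 and Tnni1 are shown because the cardiac protein differs from the slow skeletal one by an extension at its amino end. In the Tnni3 sequence the capitals mark codons for a stretch of that extension in which protein kinase A phosphorylates serine, and the Tnni1 coding sequence starts without such a stretch (GENCODE M21, GRCm38, coding strand).
Tnni3: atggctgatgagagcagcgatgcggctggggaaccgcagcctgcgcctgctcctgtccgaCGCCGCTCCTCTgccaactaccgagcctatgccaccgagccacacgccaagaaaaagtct
Tnni1: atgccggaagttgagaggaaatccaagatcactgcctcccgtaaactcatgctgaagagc
The annotated coding sequences compared were 633 bases long for Tnni3 and 561 bases for Tnni1, and 70.2% of their aligned bases were identical. Tnnt1 and Tnnt2 shared 70% of aligned coding bases, and the pairs of tropomyosin genes shared between 74.4% (Tpm3 and Tpm4) and 78.8% (Tpm1 and Tpm2).

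A second pair of sequences is shown because it touches the counts of Tpm3. Tpm3-rs7 is an intronless gene on chromosome 14 (positions 113314608 to 113316754, + strand, GRCm38) that GENCODE lists as protein-coding and RefSeq as a pseudogene. It matched the transcript Tpm3-201 at 2089 of 2103 aligned bases (99.3%), and 3 of its 14 mismatches fell in the 744 coding bases. All 3 lie in the window of 90 coding bases below, where capitals mark the differing bases, G20A, G46A and G75A, with the Tpm3 base first and positions counted from 1 at the start of the window.
Tpm3: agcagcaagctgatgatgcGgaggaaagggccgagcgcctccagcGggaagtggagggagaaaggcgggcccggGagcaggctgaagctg
Tpm3-rs7: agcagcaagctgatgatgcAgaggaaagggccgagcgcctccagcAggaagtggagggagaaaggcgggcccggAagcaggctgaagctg
A read that lies within the aligned bases and covers no mismatch and no gap matches both genes equally. Tpm3 has 3605 annotated exon bases, so part of it lies outside this alignment. How the counting assigned reads that match both genes is not given in the sources used here.

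Total counts ranged from 6634159 to 7319968 in the 4FM3 libraries and from 7099249 to 7711177 in the PBS libraries. Expression is given below as CPM, counts relative to the scaled library size, and a gene with no count may still have up to 3 counts, or 0.424 to 0.481 CPM in 4FM3 libraries and 0.371 to 0.391 CPM in PBS libraries, for counting error only. The defining markers of cardiomyocytes were abundant in every library: 13 of them summed to 102000 to 122700 CPM in 4FM3 libraries and to 68460 to 92270 CPM in PBS libraries. PBS replicates 2 and 3 stood apart with 932.7 and 898.5 CPM of 6 lung epithelium markers, against 19.5 CPM in 4FM3 replicate 2 and at most 1.696 CPM in the other 7 libraries. PBS replicates 2 and 4 held most of the fast skeletal troponin counts given below. PBS replicate 5 stood apart for the atrial genes Myl7, Myl4 and Sln, although atria were removed. Myl7, an atrial myosin light chain, had 209 counts there, 26 to 103 in 4FM3 libraries and 0 to 46 in other PBS libraries. Myl4 had 599 counts there and at most 246 counts in any other library. Sln, an atrial inhibitor of the calcium pump, had 175 counts in PBS replicate 5 and at most 59 counts in any other library. Nppa, the most abundant of the 4 atrial markers, did not set PBS replicate 5 apart. It was at 3383 CPM there and at 3043 to 3980 CPM over the PBS libraries. The 4 markers summed to 3509 CPM in PBS replicate 5 and to 4007 CPM in PBS replicate 1. Without PBS replicate 5 the same 5 genes as below were called higher and none lower. In that fit 18.3% of all genes were higher and 17.5% lower.

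The 4 genes of the adult cardiac thin filament and the slow troponin T gene Tnnt1 were higher in 4FM3 ventricles, and the other 3 tropomyosin genes tested were not called in either direction. Of the 8 tested genes, 5 rose, none fell and 3 did not pass the test (edgeR quasi-likelihood test, Benjamini-Hochberg adjusted p under 0.05 over all tested genes). Over all 12906 genes, 43% were called, 20.9% higher and 22.1% lower in 4FM3. The 5 genes that rose did not overlap between the groups, as was true in either direction for 27.5% of all tested genes. The median log2 fold change of the 8 genes was 0.52, against -0.03 over all tested genes. The same count, 5 higher and 0 lower, was found without PBS replicates 2 and 3. In that fit 14.2% of all genes were higher and 12.8% lower. Together the 9 genes took 0.922% to 1.14% of all counts in the 4FM3 libraries and 0.679% to 0.788% in the PBS libraries. In bulk tissue, fewer cells of a type and less RNA per cell cannot be told apart.

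**Figure D1:**
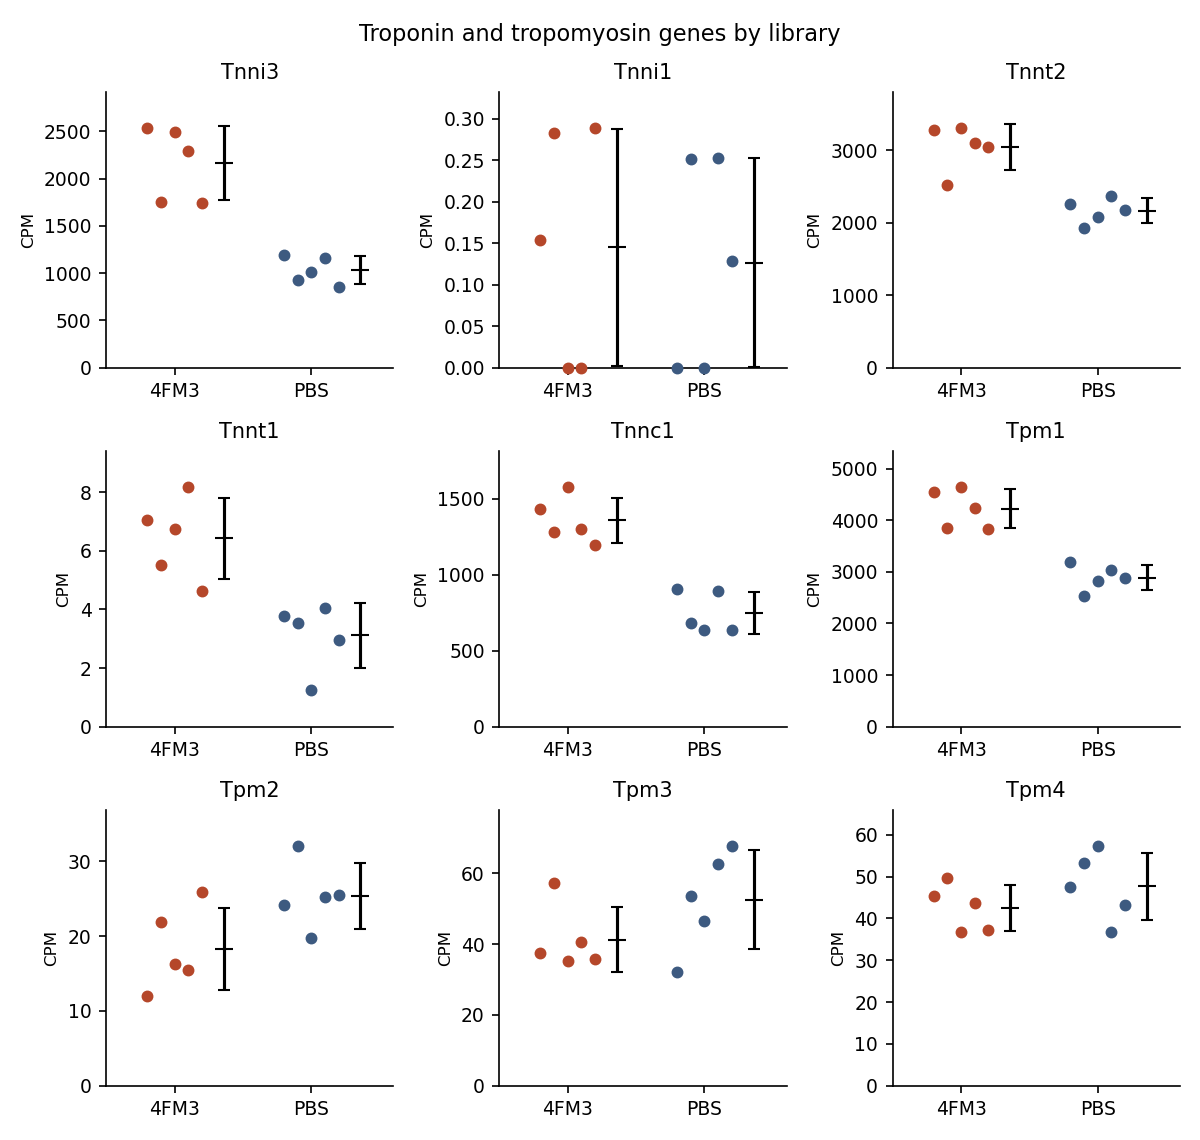
CPM of the 9 genes in each library, 4FM3 at the left and PBS at the right of each panel, each on its own linear axis from 0. Points are libraries, and the bar beside them is the mean ± SD (n = 5 each). In the panels of Tnni3, Tnnt2, Tnnt1, Tnnc1 and Tpm1 every 4FM3 library lies above every PBS library, while the groups overlap for Tpm2, Tpm3 and Tpm4, and Tnni1 stays at or under 0.2891 CPM.

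Tnni3 encodes the cardiac troponin I, the inhibitory subunit of the adult heart (chromosome 7, 4518305 to 4524229, - strand, GRCm38). Its level was 2537, 1754, 2497, 2296 and 1747 CPM in 4FM3 replicates 1 to 5, against 1197, 925.9, 1013, 1161 and 850.4 CPM in PBS replicates 1 to 5. Every 4FM3 library was above every PBS library, and 4FM3 replicates 2 and 5 were the lowest of their group. The means were 2166 ± 390 CPM in 4FM3 and 1030 ± 149 CPM in PBS (SD, n = 5 each). The log2 fold change was 1.07 ± 0.138 (SE), a 2.1-fold higher level with an adjusted p of 0.000271 in edgeR's quasi-likelihood test. Dnaaf3, which overlaps Tnni3 on the same strand, averaged 1.221 CPM in 4FM3 and 1.069 CPM in PBS.

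Tnni1 encodes the slow skeletal troponin I used by the fetal heart (chromosome 1, 135779434 to 135810989, + strand). It had 1, 2, 0, 0 and 2 counts in 4FM3 replicates 1 to 5 and 0, 2, 0, 2 and 1 counts in PBS replicates 1 to 5. All 10 libraries were thus under that limit of 3 counts, and no difference was detectable at this depth. The 2 troponin I genes therefore stood far apart in both groups, with at least 6601 counts of Tnni3 in every library.

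Tnnt2 encodes the cardiac troponin T, which ties the complex to tropomyosin (chromosome 1, 135836354 to 135852260, + strand). Its level was 3285, 2521, 3308, 3094 and 3045 CPM in 4FM3 replicates 1 to 5, against 2261, 1934, 2079, 2375 and 2181 CPM in PBS replicates 1 to 5. The groups did not overlap, although 4FM3 replicate 2 came close to PBS replicate 4. Tnnt2 averaged 3051 ± 317 CPM in 4FM3 and 2166 ± 169 CPM in PBS (SD, n = 5 each), a log2 fold change of 0.49 ± 0.0985 (SE) with an adjusted p of 0.00189 in the same edgeR test.

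Tnnt1 encodes the slow skeletal troponin T (chromosome 7, 4504570 to 4516382, - strand) and lies beside Tnni3 on the same chromosome. It was a low transcript, with 7.056, 5.511, 6.729, 8.173 and 4.625 CPM in 4FM3 replicates 1 to 5 and 3.776, 3.521, 1.238, 4.051 and 2.963 CPM in PBS replicates 1 to 5. The groups did not overlap, and these values stand for 32 to 53 counts in 4FM3 libraries and 10 to 32 counts in PBS libraries. Tnnt1 averaged 6.419 ± 1.38 CPM in 4FM3 and 3.11 ± 1.12 CPM in PBS (SD, n = 5 each), a log2 fold change of 1.04 ± 0.271 (SE) with an adjusted p of 0.00847 (edgeR). Its fold change resembled that of Tnni3, but with a 95% interval of 0.46 to 1.63 on the log2 scale, against 0.77 to 1.37 for Tnni3.

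Tnnc1 encodes troponin C of heart and slow muscle, the calcium-binding subunit (chromosome 14, 31208312 to 31211729, + strand). Its level was 1434, 1281, 1578, 1298 and 1196 CPM in 4FM3 replicates 1 to 5, against 903.5, 682.4, 633.7, 889.9 and 634.7 CPM in PBS replicates 1 to 5. The lowest 4FM3 library was above the highest PBS library. Tnnc1 averaged 1357 ± 150 CPM in 4FM3 and 748.8 ± 137 CPM in PBS (SD, n = 5 each), with a log2 fold change of 0.86 ± 0.125 (SE) and an adjusted p of 0.000359 (edgeR). Nisch, which overlaps Tnnc1 on the other strand, had 353.9 ± 29.6 CPM in 4FM3 and 386.1 ± 9.38 CPM in PBS, with a log2 fold change of -0.13 (adjusted p = 0.161, edgeR). Whether the counting used the strand is not given in the sources used here.

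Tpm1 encodes alpha-tropomyosin, the main tropomyosin of the heart (chromosome 9, 67022590 to 67049406, - strand), and had more counts than any other of the 9 genes. Its level was 4540, 3851, 4643, 4232 and 3830 CPM in 4FM3 replicates 1 to 5, against 3184, 2535, 2815, 3038 and 2872 CPM in PBS replicates 1 to 5. The groups did not overlap. Tpm1 averaged 4219 ± 377 CPM in 4FM3 and 2889 ± 245 CPM in PBS (SD, n = 5 each), a log2 fold change of 0.55 ± 0.0976 (SE) with an adjusted p of 0.00101 (edgeR). Its 21 annotated transcripts, 16 of them coding, include muscle and cytoskeletal forms that the gene counts do not separate.

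Tpm2 encodes beta-tropomyosin of skeletal and smooth muscle (chromosome 4, 43514711 to 43523765, - strand). Its level was 11.96, 21.9, 16.34, 15.42 and 25.87 CPM in 4FM3 replicates 1 to 5, against 24.22, 32.07, 19.69, 25.2 and 25.51 CPM in PBS replicates 1 to 5. The groups overlapped through 4FM3 replicates 2 and 5, which were the highest of their group for Tpm2 and the lowest for Tnni3. Tpm2 averaged 18.3 ± 5.54 CPM in 4FM3 and 25.33 ± 4.43 CPM in PBS (SD, n = 5 each), with a log2 fold change of -0.46 ± 0.192 (SE). It did not pass the test (unadjusted p = 0.0327, adjusted p = 0.0693, edgeR). Without 4FM3 replicate 5 it was called lower, at -0.62 with an adjusted p of 0.0122.

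Tpm3 and Tpm4 serve mainly the actin cytoskeleton of non-muscle cells, and Tpm3 also slow skeletal muscle. Tpm3 (chromosome 3, 90072649 to 90100902, + strand) had 37.43, 57.23, 35.25, 40.56 and 35.84 CPM in 4FM3 replicates 1 to 5, against 32.16, 53.57, 46.55, 62.54 and 67.76 CPM in PBS replicates 1 to 5. The groups overlapped: 4FM3 replicate 2 was high for its group and PBS replicate 1 was the lowest of all 10. The means were 41.26 ± 9.16 CPM in 4FM3 and 52.52 ± 14 CPM in PBS (SD, n = 5 each), with a log2 fold change of -0.35 (95% interval -0.79 to 0.09, adjusted p = 0.183, edgeR). Without PBS replicate 1 it was called lower, at -0.48 with an adjusted p of 0.0308.

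Tpm4 (chromosome 8, 72134975 to 72153142, + strand) had 45.25, 49.6, 36.85, 43.79 and 37.29 CPM in 4FM3 replicates 1 to 5, against 47.52, 53.32, 57.33, 36.84 and 43.16 CPM in PBS replicates 1 to 5. The groups overlapped over most of their range. The means were 42.56 ± 5.45 CPM in 4FM3 and 47.63 ± 8.11 CPM in PBS (SD, n = 5 each), and the log2 fold change was -0.16 (95% interval -0.43 to 0.1, adjusted p = 0.298, edgeR). The processed pseudogene of Tpm4 named Gm7809 had 0 counts in all 10 libraries.

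The counts of Tpm3-rs7 differed between libraries more than those of any of the 8 tested genes, with a coefficient of variation of 56.3% in 4FM3 and 65.3% in PBS. It had 60, 2, 42, 64 and 56 counts in 4FM3 replicates 1 to 5 and 152, 105, 76, 0 and 102 counts in PBS replicates 1 to 5. Its share of the summed counts of both genes was 16% to 19.7% in 4 libraries of 4FM3 and 16.2% to 19.8% in 3 libraries of PBS. The share was 0.491% in 4FM3 replicate 2 and 0% in PBS replicate 4, and 38.1% in PBS replicate 1. The library with the highest share, PBS replicate 1, had the lowest Tpm3 level of its group, and 4FM3 replicate 2, with nearly none, had the highest Tpm3 level of its group. PBS replicate 4, with none, was at 62.54 CPM of Tpm3, below PBS replicate 5 at 67.76 CPM with a share of 16.2%.

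With both genes summed, an alternative chosen after seeing the data, the level was 46.63, 57.51, 41.98, 50.43 and 43.94 CPM in 4FM3 replicates 1 to 5, against 51.95, 66.77, 55.96, 62.54 and 80.9 CPM in PBS replicates 1 to 5. The coefficient of variation of the sum was 12.8% in 4FM3 and 17.7% in PBS, against 22.2% in 4FM3 and 26.7% in PBS for Tpm3 alone. The sum averaged 48.1 ± 6.14 CPM in 4FM3 and 63.63 ± 11.2 CPM in PBS (SD, n = 5 each). It was called lower, with a log2 fold change of -0.4 ± 0.121 (SE) and an adjusted p of 0.0179 (edgeR), although the groups still overlapped. Whether the 2 genes share reads was not tested.

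**Figure D2:**
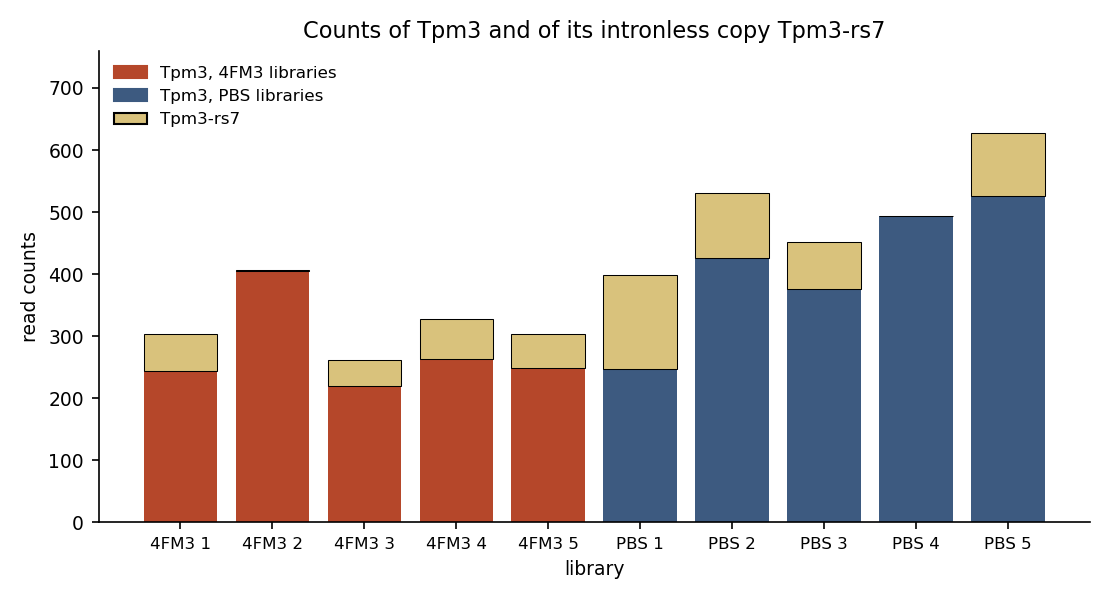
Read counts of Tpm3 (coloured) and Tpm3-rs7 (pale, stacked above) in each library, the 5 libraries of 4FM3 at the left and the 5 of PBS at the right. Tpm3-rs7 is nearly missing in 4FM3 replicate 2 (2 counts) and PBS replicate 4 (0 counts) and largest in PBS replicate 1 (152 counts).

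Levels of different genes were compared per kilobase of annotated exon, on the scale of CPM per kb. The order of the 9 genes was the same in both groups: Tnnt2, Tnnc1, Tnni3, Tpm1, Tpm4, Tpm3, Tpm2, Tnnt1 and Tnni1. Tnnt2 averaged 2100 ± 218 in 4FM3 and 1490 ± 116 in PBS, and Tnnc1 averaged 1880 ± 208 in 4FM3 and 1040 ± 189 in PBS (SD, n = 5 each, as in the rest of this paragraph). Tnni3 averaged 1620 ± 292 in 4FM3 and 771 ± 111 in PBS. The ranges of Tnnt2 and Tnnc1 overlapped in 4FM3 (1740 to 2280 and 1660 to 2190 CPM per kb) but not in PBS (1330 to 1630 and 879 to 1250 CPM per kb). Those of Tnnc1 and Tnni3 overlapped in both groups. Tpm1 averaged 883 ± 79 in 4FM3 and 604 ± 51.3 in PBS, and its range met that of Tnni3 in PBS only.

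The remaining genes were lower by far on the same scale. Tpm4 averaged 20 ± 2.56 CPM per kb in 4FM3 and 22.4 ± 3.81 in PBS, Tpm3 averaged 11.4 ± 2.54 in 4FM3 and 14.6 ± 3.88 in PBS, and Tpm2 averaged 7.48 ± 2.26 in 4FM3 and 10.4 ± 1.81 in PBS. Tnnt1 averaged 4.22 ± 0.907 CPM per kb in 4FM3 and 2.04 ± 0.737 in PBS. From Tpm4 to Tnnt1, neighbours in this order overlapped in range, except Tpm4 and Tpm3 in 4FM3 and Tpm2 and Tnnt1 in PBS. Exon length counts all annotated protein-coding transcripts, so a gene used in a short form is understated.

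Ratios of counts within a library do not depend on the scaling, and 13 were compared by an exact permutation test, two-sided, whose smallest p is 0.00794, with p-values adjusted over the 13. The cardiac subunits did not keep their proportions. Tnni3 stood at 77.2, 69.6, 75.5, 74.2 and 57.4 counts per 100 counts of Tnnt2 in 4FM3 replicates 1 to 5, against 53, 47.9, 48.7, 48.9 and 39 in PBS replicates 1 to 5. Every 4FM3 library was above every PBS library, with a log2 difference of 0.57 (exact p = 0.00794, adjusted 0.0258). Tnnc1 stood at 44.7 ± 4.58 counts per 100 of Tnnt2 in 4FM3 and 34.5 ± 4.6 in PBS (SD, n = 5 each), a log2 difference of 0.38 (exact p = 0.0159, adjusted 0.0295), with overlapping groups. Tpm1 stood at 139 ± 9.62 counts per 100 of Tnnt2 in 4FM3 and 133 ± 4.93 in PBS, a log2 difference of 0.06 that was within the spread of the libraries (exact p = 0.317, adjusted 0.317). Tnni3 to Tnnc1 was 159 ± 18 per 100 in 4FM3 and 139 ± 12.1 in PBS, and did not pass (exact p = 0.0714, adjusted 0.0929).

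Set against Actc1, the cardiac alpha-actin that forms the core of the thin filament, the same split appeared. These ratios reuse the counts of Tnni3, Tnnc1, Tnnt2 and Tpm1, so they are not independent of those above. Tnni3 was at 34.1 ± 6.71 counts per 100 of Actc1 in 4FM3 and 20.4 ± 0.931 in PBS, and Tnnc1 at 21.3 ± 2.35 in 4FM3 and 14.8 ± 0.909 in PBS (SD, n = 5 each). For both the groups did not overlap (log2 differences 0.72 and 0.52, exact p = 0.00794 and adjusted p = 0.0258 for each). The log2 differences of Tnnt2 and Tpm1 to Actc1, 0.14 and 0.2, did not pass (exact p = 0.159 and 0.0635, adjusted 0.188 and 0.0917).

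Among the tropomyosins, Tpm1 held 96.8% to 98.1% of the counts of the 4 genes in 4FM3 libraries and 94.8% to 96.8% in PBS libraries. Tpm2 stood at 0.265, 0.571, 0.354, 0.366 and 0.677 counts per 100 counts of Tpm1 in 4FM3 replicates 1 to 5, against 0.763, 1.27, 0.702, 0.831 and 0.89 in PBS replicates 1 to 5. All 4FM3 libraries were below all PBS libraries, a log2 difference of -1.05 (exact p = 0.00794, adjusted 0.0258). Tpm3 to Tpm1 was 0.995 ± 0.288 per 100 in 4FM3 and 1.84 ± 0.528 in PBS, and Tpm4 to Tpm1 was 1.02 ± 0.177 per 100 in 4FM3 and 1.67 ± 0.385 in PBS (SD, n = 5 each). Their log2 differences were -0.87 and -0.7 (exact p = 0.0159 and adjusted p = 0.0295 for each), with groups that overlapped.

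Among the slow isoforms, Tnnt1 to Tnnt2 had a log2 difference of 0.62 and did not pass after adjustment (exact p = 0.0397, adjusted 0.0645), and Tnni1 to Tnni3 rested on too few counts to compare. In all, 4 of the 13 ratios were higher and 3 were lower in 4FM3. These calls sit close to the threshold: without PBS replicate 2 or without PBS replicate 5, none of the 7 passed (adjusted p 0.0516 to 0.0645), while each kept its direction. Without 4FM3 replicate 1, 2, 3 or 4 the ratio of Tnnc1 to Tnnt2 did not pass (adjusted p = 0.0516). Without 4FM3 replicate 1, 3 or 4 the ratio of Tpm2 to Tpm1 was the 1 lower ratio called, and without PBS replicate 3 or 4 that of Tpm3 to Tpm1 did not pass (adjusted p = 0.0645). Without both PBS replicates 2 and 3 none of the 13 passed, in a design of 8 libraries whose smallest p is 0.0179. The log2 differences there were 0.6 for Tnni3 to Tnnt2, -0.97 for Tpm2 to Tpm1, 0.73 for Tnni3 to Actc1 and -0.47 for Tpm4 to Tpm1.

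**Figure D3:**
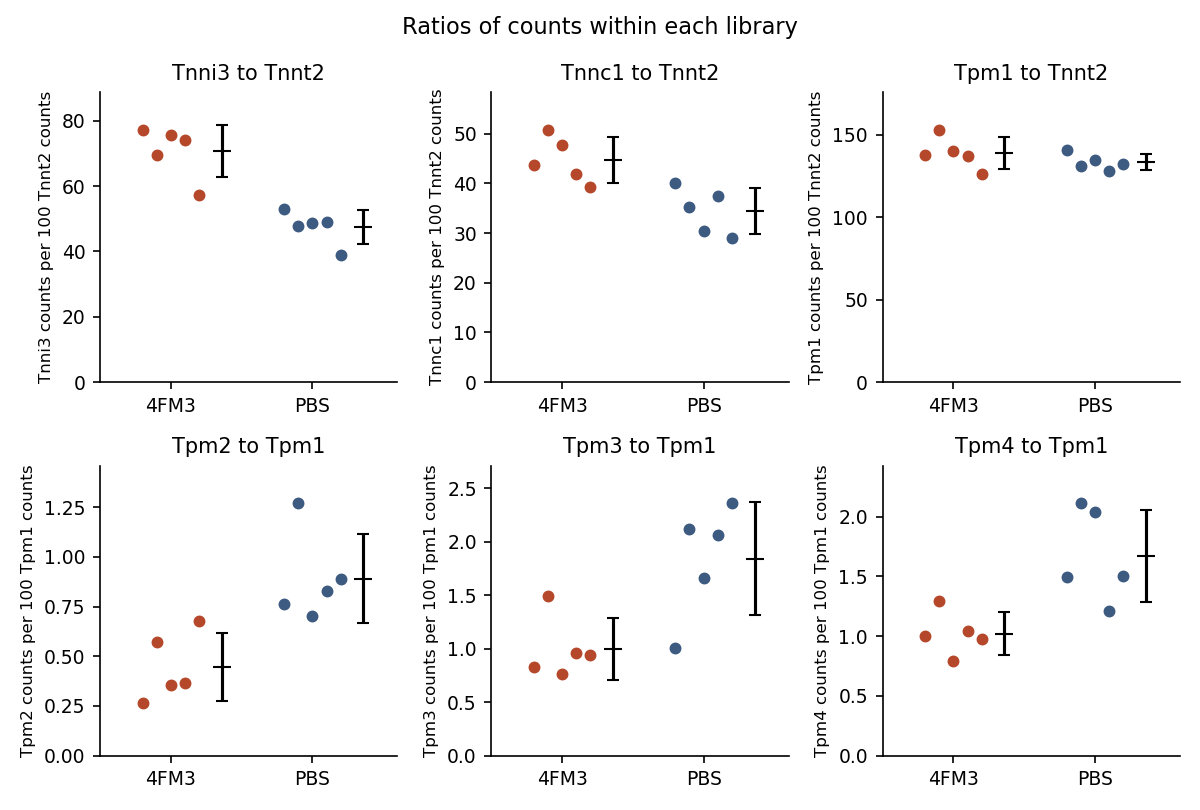
Counts of 1 gene per 100 counts of another within each library, 4FM3 at the left and PBS at the right of each panel, on linear axes from 0, with the mean ± SD beside the points (n = 5 each). Tnni3 to Tnnt2 is higher and Tpm2 to Tpm1 lower in every 4FM3 library than in any PBS library, while Tpm1 to Tnnt2 overlaps.

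Markers of cell types differed between the groups, set against 20.9% of all genes called higher and 22.1% called lower in 4FM3. Of the 13 cardiomyocyte markers, none of them a troponin or tropomyosin, 11 were higher in 4FM3 and none lower, with Ttn, the giant spring protein of the sarcomere, and Myh6, the adult alpha-myosin heavy chain, the most abundant. All 8 fibroblast markers were lower, with a summed level of 3924 to 6814 CPM in 4FM3 libraries and 9804 to 12180 CPM in PBS libraries, led by the collagen gene Col3a1 (1517 ± 409 CPM in 4FM3 and 3432 ± 542 CPM in PBS, SD, n = 5 each). Of 6 smooth muscle markers, 4 were lower, with summed levels that overlapped, at 244.6 to 305.6 CPM in 4FM3 and 295 to 449.1 CPM in PBS. Of 6 macrophage markers 5 were lower, again with summed levels that overlapped, at 340.5 to 410.5 CPM in 4FM3 and 401.1 to 789.8 CPM in PBS. Of 5 endothelial markers 3 were higher, at 824.8 to 953.1 CPM in 4FM3 and 627.7 to 772.7 CPM in PBS. The part of these cell types in the changes of the thin filament genes was not tested.

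When libraries were scaled to the 13 cardiomyocyte markers in place of all genes, the median log2 fold change of all genes shifted by -0.58. On that scale 2.1% of all genes were called higher and 74.8% lower in 4FM3. Of the 8 tested troponin and tropomyosin genes, 2 were higher and 3 lower. Tnni3 kept a log2 fold change of 0.5 ± 0.091 (SE, adjusted p = 0.000337) and Tnnc1 one of 0.29 ± 0.0854 (adjusted p = 0.00663), both in edgeR. Tnnt2 and Tpm1 lay at -0.09 and -0.04 (adjusted p = 0.297 and 0.676), with SE of 0.0782 and 0.0766, and were not called. Tnnt1 was at 0.47 (adjusted p = 0.116). Tpm2, Tpm3 and Tpm4 were called lower at -1.04, -0.94 and -0.76 (adjusted p = 0.00179, 0.00516 and 0.00143), among the 74.8% of genes called lower on this scale.

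**Figure D4:**
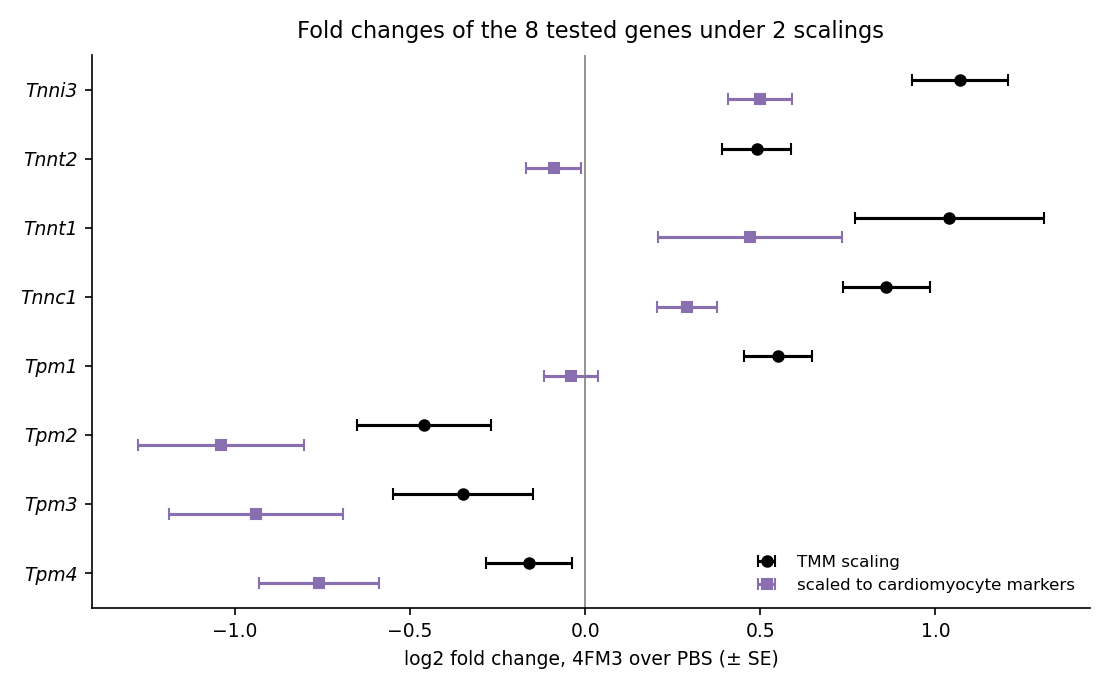
Log2 fold changes of the 8 tested genes, 4FM3 over PBS, with TMM scaling (black circles) and with scaling to cardiomyocyte markers (purple squares), with SE. The second scaling places every gene lower: Tnni3 (0.5) and Tnnc1 (0.29) stay above 0, Tnnt2 (-0.09) and Tpm1 (-0.04) come to lie near 0, and Tpm2, Tpm3 and Tpm4 lie between -1.04 and -0.76.

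The fast skeletal troponins, which the healthy heart does not use, checked for skeletal muscle. Tnni2, the fast troponin I, had 1, 2, 0, 1 and 3 counts in 4FM3 replicates 1 to 5 and 1, 5, 0, 4 and 1 counts in PBS replicates 1 to 5. Tnnt3, the fast troponin T, had 2, 3, 1, 1 and 2 counts in 4FM3 replicates and 4, 24, 3, 13 and 2 counts in PBS replicates. Tnnc2, the fast troponin C, had 1 count in all 4FM3 libraries together, and 4 counts in PBS replicate 2 and 1 count in PBS replicate 3. None of the 3 had enough counts to be tested. The highest counts of Tnni2 and Tnnt3 were in PBS replicates 2 and 4. Some of the 8 fast skeletal markers stood apart in the same libraries. The fast myosin gene Myh1 had 67 and 81 counts there, and at most 4 in any other library. The fast myosin gene Myh4 had 16 and 14 counts (at most 1 elsewhere) and the calcium pump gene Atp2a1 44 and 23 (at most 4 elsewhere). Actn3 (16 and 10 counts) and Pvalb (8 and 9 counts) were less apart, with 8 and 6 counts in PBS replicate 5. Myl1, the most abundant of the markers, did not set these libraries apart. It was at 72.69 and 58.37 CPM in PBS replicates 2 and 4, and at 58.37 to 89.05 CPM over the PBS libraries. Within the PBS group Tnnt1, the slow form, was at 3.521 and 4.051 CPM in replicates 2 and 4, against 3.776, 1.238 and 2.963 CPM in replicates 1, 3 and 5. With PBS replicates 2 and 4 left out, which was chosen after seeing the data, 5 of the 8 tested genes were again called higher and 0 lower. In that fit 16.8% of all genes were higher and 15.6% lower. Tnnt1, among the 5, had a log2 fold change of 1.28.

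A list of 14 genes tied to the same filament in striated muscle held its actins Actc1 and Acta1, the kinase gene Tnni3k and others. Of the 14, 11 were higher in 4FM3, 1 was lower and 2 were not called, where 20.9% of all genes were higher. With scaling by library size alone 5 of the 14 were higher and 1 lower, where 11.9% of all genes were higher. The median log2 fold change of the 14 was 0.37. Fhod3, a formin that builds cardiac actin filaments, averaged 371.7 ± 50.1 CPM in 4FM3 and 244.4 ± 38.6 CPM in PBS (log2 fold change 0.6, adjusted p = 0.00166, edgeR). Tmod4, a tropomodulin that caps the pointed end beside tropomyosin, averaged 16.77 ± 5.2 CPM in 4FM3 and 8.345 ± 1.13 CPM in PBS (log2 fold change 1, adjusted p = 0.0034). Cap2, which binds actin monomers, had a log2 fold change of 0.35 (adjusted p = 0.00241, edgeR). Xirp2, an actin-binding protein of the cell's end-to-end junctions, was the gene that fell, with 917.8 ± 154 CPM in 4FM3 and 1489 ± 277 CPM in PBS (log2 fold change -0.7, adjusted p = 0.00202). Neb and Xirp1 were at 0.38 and 0.22 and did not pass (adjusted p = 0.452 and 0.176). Without PBS replicates 2 and 3, 5 of the 14 were called higher and 1 lower, where 14.2% of all genes were higher. With scaling to cardiomyocyte markers 0 were higher and 5 lower, where 2.1% of all genes were higher and 74.8% lower.

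Actin filament genes of smooth muscle and non-muscle cells moved the other way. Of 19, none was higher, 14 were lower and 5 were not called, where 22.1% of all genes were lower, with a median log2 fold change of -0.4. The list holds 5 of the 6 smooth muscle markers, Acta2, Cnn1, Tagln, Smtn and Lmod1. The 5 not called were Tmod2 (-0.32, adjusted p = 0.053), Lmod1 (-0.69, adjusted p = 0.0538), Smtn (0.19, adjusted p = 0.068), Synpo2 (0.13, adjusted p = 0.253) and Vcl (0.03, adjusted p = 0.784). Tagln, an actin-binding protein of smooth muscle, averaged 21.9 ± 4.04 CPM in 4FM3 and 44.69 ± 6.12 CPM in PBS (log2 fold change -1.03, adjusted p = 0.000271, edgeR). Cnn1, the smooth muscle calponin, averaged 1.726 ± 0.708 CPM in 4FM3 and 6.071 ± 2.47 CPM in PBS (log2 fold change -1.8, adjusted p = 0.00124). Flna, which crosslinks actin filaments, and the calponin Cnn3 were at -0.74 and -0.57 (adjusted p = 0.000515 and 0.00059). Without PBS replicates 2 and 3, 8 of the 19 were called lower, where the share over all genes was 12.8%. Without 4FM3 replicate 1 alone, 9 were lower, where the share over all genes was 17.6%.

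**Figure D5:**
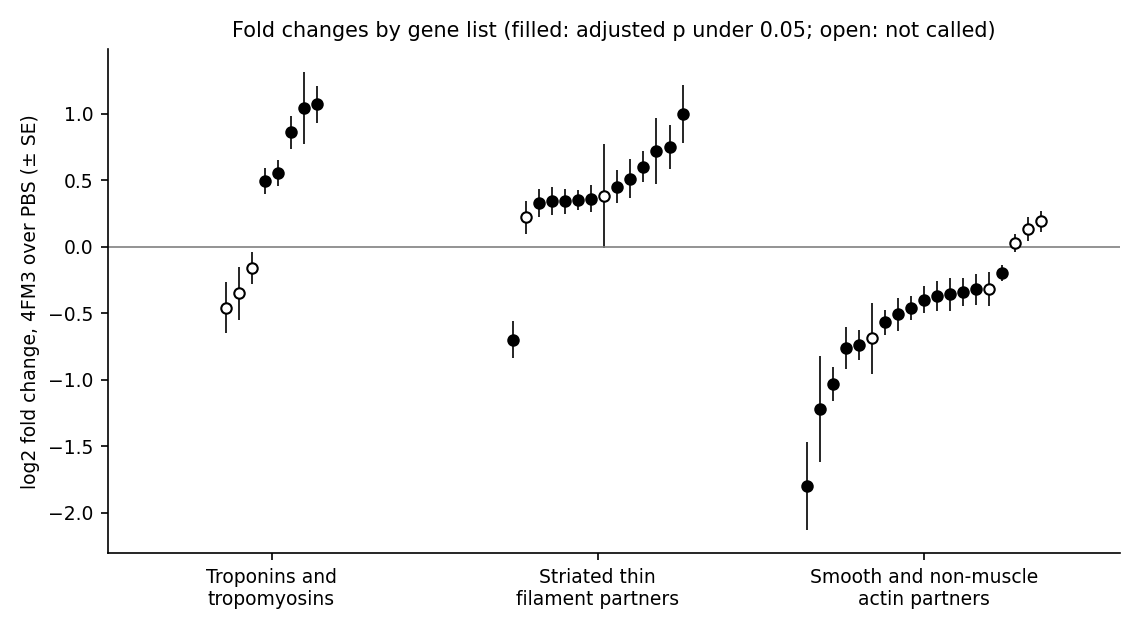
Log2 fold changes, 4FM3 over PBS, with SE, of the 8 tested troponin and tropomyosin genes, the 14 striated thin filament partners and the 19 smooth and non-muscle actin partners, each group ordered by value. Filled points passed an adjusted p under 0.05. The 5 filled points of the first group lie between 0.49 and 1.07, and 14 of the 19 points of the third are filled and below 0.

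Within the groups the cardiac genes varied together. As a description over the 10 libraries, with each group's mean removed, the deviations of log2 CPM correlated at 0.861 for Tnni3 and Tpm1, 0.821 for Tnnt2 and Tpm1, 0.806 for Tnni3 and Tnnc1, 0.768 for Tnnc1 and Tpm1, 0.728 for Tnni3 and Tnnt2 and 0.59 for Tnnt2 and Tnnc1. The values of Tpm2 were -0.721 with Tnni3, -0.703 with Tpm1, -0.516 with Tnnt2 and -0.271 with Tnnc1. Those of Tpm3 and Tpm4 with the same genes were negative too. They ran from -0.541 (Tnni3) to -0.396 (Tnnc1) for Tpm3 and from -0.688 (Tnnt2) to -0.201 (Tnni3) for Tpm4. All these values share the libraries and their scaling. By the same measure the non-member genes most like Tnni3 were Prdx5 (0.995), Cox8b (0.983) and Phb2 (0.983), and those most like Tnnt1 were Rnf187 (0.909), Pecr (0.901) and Agtrap (0.897). For Tnnt2 they were Apex2, Gpcpd1 and Pnpla2 (0.948 to 0.953), for Tnnc1 Eif2b4, Murc and Slc16a1 (0.961 to 0.969), and for Tpm1 Fopnl, Eef1d and Pcyt1a (0.968 to 0.976). For Tpm2 they were Col11a1 (0.975), Nsmf (0.959) and Edn1 (0.956), for Tpm3 Gemin8, Fndc4 and 4931406C07Rik (0.921 to 0.943), and for Tpm4 Slc39a10, Rasl11a and Gm9776 (0.916 to 0.921). These are the highest values of a search through the tested genes, 12906 in all, over only 10 libraries. The top of so wide a search is high even for unrelated genes, and none of these values was tested.

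The windows of 250 bases upstream of the starts of Tnnt2 and Tnnc1 are shown because both genes were higher in 4FM3 and neither window holds an annotated exon of its gene (RefSeq, GRCm38.p6). They lie at chr1:135836084-135836333 and chr14:31208062-31208311, both on the + strand. Capitals mark matches, on either strand, of CATTCC, the core of the muscle CAT element, and of the GATA form AGATAA, also with T as its first or G as its last base.
Tnnt2: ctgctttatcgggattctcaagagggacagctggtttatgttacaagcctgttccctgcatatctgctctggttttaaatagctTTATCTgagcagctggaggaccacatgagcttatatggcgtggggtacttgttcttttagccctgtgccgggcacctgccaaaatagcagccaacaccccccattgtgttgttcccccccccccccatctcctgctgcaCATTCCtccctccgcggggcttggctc
Tnnc1: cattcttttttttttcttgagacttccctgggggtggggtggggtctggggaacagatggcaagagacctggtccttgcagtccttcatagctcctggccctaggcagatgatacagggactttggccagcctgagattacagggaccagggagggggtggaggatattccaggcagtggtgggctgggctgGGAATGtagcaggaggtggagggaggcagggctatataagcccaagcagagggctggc
CATTCC was found in the windows of Tnnt2, Tnnc1 and Tpm1, at -27, -58 and -56 from the start, and in 12.6% of all 32851 RefSeq windows of this length. The GATA forms were found in the windows of Tnnt2 and Tpm3 and in 26.5% of all windows. TATAAA was found in the Tnnt1 window, at -30 from the start, and in 12.4% of all windows. The Tnni3 window held none of these. The patterns named CArG box and MEF2 element were searched for too. They were in no window of the 9 genes, and in 1.47% and 2.92% of all windows. CANNTG, with N any base, is not marked above. It was in every window of the 9 genes but that of Tpm4, and in 66.2% of all windows. A match is a description of the letters in these windows and says nothing about binding.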

How the data were processed

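RNA of 10 left ventricle libraries was sequenced, 5 of 4FM3 and 5 of PBS. Per the labels' protocols, ribosomal RNA was depleted and strand-preserving libraries were made. The build was mm10, per the submitters' processing notes. No aligner, counting tool or strand setting is given in the sources used here. The deposited columns used hold whole-number read counts per gene, and normalized columns in the same table were not used. The table has rows with a calendar date for a symbol, which stayed in the fit and are not named.

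Counts were filtered with filterByExpr, scaled by TMM and tested with edgeR 4.0.16 (R 4.3.3) by the quasi-likelihood test with robust dispersions, two-sided, adjusted by Benjamini-Hochberg over 12906 genes with a threshold of 0.05. The common biological coefficient of variation was 14.5%. Ratios of counts used a pseudocount of 0.5, and deviations used log2 of CPM plus 0.5. Alternatives used DESeq2 1.42.0, limma 3.58.1 (voom), other scalings, no filter, left-out libraries and summed copies. Gene positions, exon lengths and coding sequences came from GENCODE M21. The tests were tried on simulated data.

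The genes, lists and ratios were chosen with earlier results of these data known. Named are all 9 genes, the fast skeletal troponins, and in each partner list the 4 genes with the smallest p and those not called. The most abundant cardiomyocyte, fibroblast, atrial and fast skeletal markers and the 3 genes most like each tested gene are named too. Other atrial and fast skeletal markers were named for how they differed between single libraries. Tpm3-rs7, Gm7809 and overlapping genes were chosen for their sequence or position. Of the cell type lists used only to describe single libraries, 1 of the 8 fast skeletal markers (Myl1) was tested and not called. Of the 4 atrial markers, 1 (Nppa) was lower with 3 not called, and none of the 6 lung markers was tested.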

Additional observations from a re-analysis of the deposited data

Results flagged for a closer look

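In groups of 5 libraries, 3 of 40 groups examined had 1 library set far from the other 4, where chance gives about 1 in 20. Tpm3 was at 57.23 CPM in 4FM3 replicate 2, the highest of its group. This library had 2 counts of Tpm3-rs7, and the sum of both genes was not set apart there. The ratio of Tpm3 to Tpm1 in the same library was 1.49 counts per 100, again the highest of the 4FM3 group. The ratio of Tnni3 to Tnnc1 in PBS replicate 3 was 160 counts per 100, the highest of the PBS group. Without that library the ratio was higher in 4FM3 with a log2 difference of 0.25 (adjusted p = 0.0442, exact permutation test). Leaving out the highest PBS value necessarily widens such a difference. With all libraries this ratio did not pass (adjusted p = 0.0929, exact permutation test), and it passed in 1 of the 10 tests without 1 library.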

How the results depend on the processing

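The 5 higher genes kept their calls under all 21 alternatives other than scaling to cardiomyocyte markers. Scaling by library size alone shifted the median of all genes by -0.18 and called 2 genes lower, Tpm2 (-0.64, adjusted p = 0.0236) and Tpm4 (-0.34, adjusted p = 0.0442, edgeR), where 38.5% of all genes were called lower. Scaling to cardiomyocyte markers called 2 higher and 3 lower, with Tnnt2 at -0.09, Tpm1 at -0.04, Actc1 at -0.23, Tmod1 at -0.24, Lmod2 at -0.21, Lmod3 at -0.06, Nebl at -0.13, Cap2 at -0.23, Nrap at -0.23, Smtn at -0.39, Synpo2 at -0.45 and Vcl at -0.56. Leaving out 1 library gave 5 higher and 0 to 1 lower, which was Tpm2 or Tpm3. In those fits 17.7% to 21.8% of all genes were higher and 17% to 22.9% lower. With 4 libraries left out together (4FM3 replicates 2 and 5, PBS replicates 2 and 3), 1 was lower, Tpm2 (-0.78, adjusted p = 0.00169, edgeR). In that fit 17.5% of all genes were lower. With Tpm3 and Tpm3-rs7 summed, 1 was lower, where 22.1% of all genes were lower. The cause of these changes was not tested.

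Same-numbered libraries did not deviate together (r from -0.043 to 0.071), and no library correlated best with its own number. The fit with a replicate block called 1 gene lower, Tpm2 (-0.49, adjusted p = 0.0196, edgeR), where 22.1% of all genes were lower. The ratios were not tested with the block, for which the smallest p is 0.0625.

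Leaving out 1 library gave 0 to 6 ratios higher and 0 to 3 lower. Without PBS replicates 2 and 3, and likewise without PBS replicates 2 and 4, 0 were higher and 0 lower, with 56 assignments and a smallest p of 0.0179. Without 4FM3 replicate 5, Tnnt1 to Tnnt2 and Tpm1 to Actc1 also passed (adjusted p = 0.0442 and 0.0459). A pseudocount of 5 also called Tnni1 to Tnni3 lower (adjusted p = 0.0387, exact permutation test). Tnni1 had at most 2 counts in any library, so the added 5 made this ratio follow Tnni3. The call therefore says nothing about Tnni1. Depth limits Tnni1 and the fast troponins, at a few counts each.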
